A study of Mus musculus with 27 samples.

Results

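Expression of 10 endothelial genes was followed in fibroblast cultures during their conversion to induced neurons (iN). The genes were Pecam1, Cdh5, Kdr, Tek, Tie1, Flt1, Emcn, Egfl7, Esam and Cldn5, a set chosen by name as markers of the cells that line blood vessels, and all 10 were found among the 54532 genes of the expression table. Mouse embryonic fibroblasts (MEFs) came from day 13.5 embryos without head and heart, pooled from several embryos per dish. All 27 cultures, those of day 0 included, carried lentiviruses for a set of neuronal transcription factors, called BAM, and for the transactivator M2rtTA. Doxycycline, which switches on the BAM factors, and the change from serum-containing medium to serum-free N3 medium came together at day 0, so that factors, medium and culture time cannot be told apart in what follows. The 9 groups were WT, Per1-/- (B6.129-Per1tm1Drw/J) and Per2-/- (B6.129-Per2tm1Drw/J) cells at day 0, before induction, and at days 2 and 4, with 3 biological replicates each.

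Endothelial cells are joined by adherens junctions built on VE-cadherin (Cdh5), by tight junctions containing claudin-5 (Cldn5) and ESAM, and by the adhesion molecule PECAM1. They read the growth factors of the VEGF family through the receptor tyrosine kinases encoded by Kdr and Flt1. The angiopoietins act through the receptor encoded by Tek, with which its relative Tie1 forms complexes. Emcn encodes the sialomucin endomucin of capillaries and veins, and Egfl7 a secreted protein of the vessel matrix. Tek, Kdr and Flt1 are also transcribed in some mesenchymal, neural or blood cells, whereas Pecam1, Cdh5, Tie1 and Cldn5 are used to tell endothelium from mesenchyme.

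The libraries held between 15815013 and 24264097 fragments assigned to genes. In cells labelled Per1-/-, Per1 was 4.11 ± 0.866 FPKM (fragments scaled to exon length and library depth, mean ± SD, n = 3) at day 0 against 5.78 ± 0.479 in WT cells, and it did not pass the test (log2 fold change -0.50, limma adjusted p = 0.771). Per2 was 1.93 ± 0.0680 FPKM at day 0 in cells labelled Per2-/- and 0.894 ± 0.0709 in WT cells, a higher level in the group labelled as lacking it (log2 fold change 1.03, limma adjusted p = 0.00114). Both alleles remove a part of the gene, and whether the counted fragments lie outside that part was not tested, so genotypes are given below as labelled. By western blotting, the study reports loss of PER1 protein in its Per1-/- MEFs and of PER2 protein in its Per2-/- MEFs. Those blots were not analysed here. Replicate 1 of Per1-/- cells stood apart on several of the 10 genes and is described with them.

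Of the 4 genes used to tell endothelium from mesenchyme, Tie1, Cldn5 and Pecam1 were at or near 0 on every day, whereas Cdh5 reached 1.11 FPKM. Tie1 had 17 fragments over all 27 libraries and none in 21 of them, where a count of 0 allows up to 3 fragments, or 0.0236 to 0.0413 FPKM depending on the library. Cldn5 also had 17 fragments in all, none in 17 libraries and at most 3 in any. Pecam1 had between 1 and 15 fragments per library, with a mean of 0.0536 FPKM. Intervals and limits of this kind cover counting error only. Cdh5 had 873 fragments in all and a mean of 0.387 FPKM, and Esam and Emcn had means of 0.244 and 0.111 FPKM. The other 4 genes reached the level of 0.5 FPKM required for the test, with means of 2.84 FPKM for Tek, 1.47 for Flt1, 0.916 for Egfl7 and 0.876 for Kdr. The 10 genes differed in level and are described one by one.

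Further endothelial genes ranged widely in level. Of 22 genes of vessel endothelium outside the set of 10, 10 passed the same filter, with S1pr1, Eng, Cd34 and Cd93 at means of 7.61, 7.22, 7.20 and 5.30 FPKM. The 22 genes summed to between 33.4 and 53.4 FPKM per library at day 0, 29.6 and 55.5 at day 2 and 34.6 and 77.8 at day 4. Robo4, a guidance receptor of endothelium, and Gpihbp1, which anchors lipoprotein lipase on capillaries, had at most 2 and 4 fragments per library, and are named for their low levels. Icam2 had at most 8 fragments and Nos3, the endothelial nitric oxide synthase, at most 9. Etv2, the ETS factor that starts the endothelial programme in the embryo, was at 0 fragments in all 27 libraries.

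**Figure D1:**
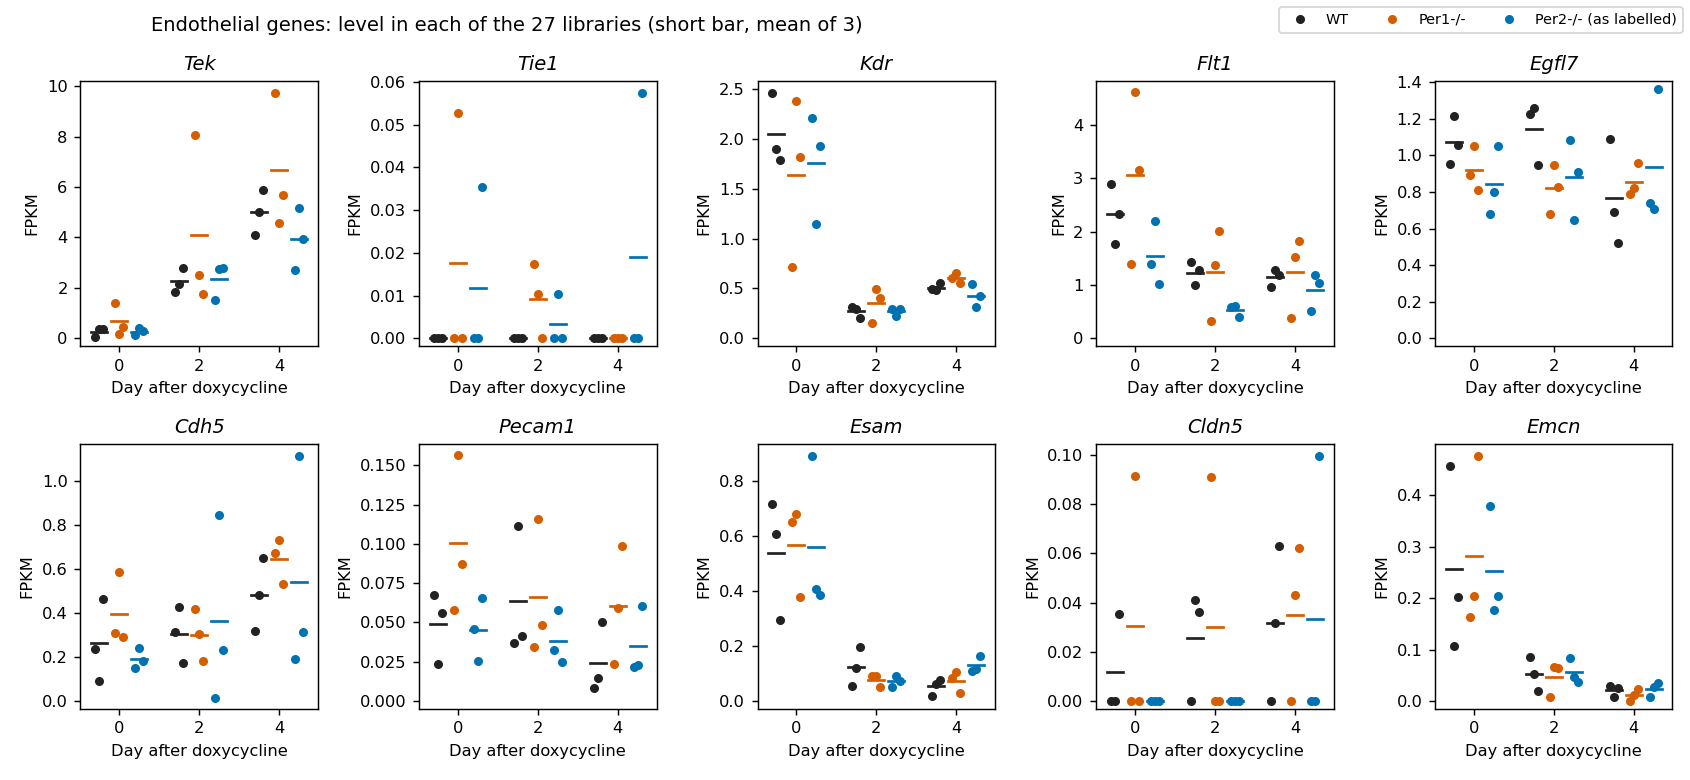
Level in FPKM (vertical axes, each panel with its own linear scale) of the 10 endothelial genes by day (horizontal axes) in WT, Per1-/- and Per2-/- cells; each point is 1 library and each short bar the mean of 3. Tek is higher at days 2 and 4 than at day 0 in all 9 libraries, Kdr, Esam and Emcn are lower in all 9, and Tie1, Pecam1 and Cldn5 stay below 0.16 FPKM throughout.

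Tek rose from day 0 in every genotype. The gene lies on chromosome 4 (94739289 to 94874976, plus strand, GRCm38) and encodes the receptor for angiopoietins. Tek was 0.0446, 0.359 and 0.381 FPKM in the 3 WT libraries at day 0, 1.82, 2.17 and 2.79 at day 2, and 4.11, 4.997 and 5.88 at day 4. In Per1-/- cells it was 1.40, 0.193 and 0.446 FPKM at day 0, 8.06, 2.52 and 1.76 at day 2, and 9.72, 4.59 and 5.70 at day 4. In cells labelled Per2-/- the values were 0.133, 0.394 and 0.283 FPKM at day 0, 1.51, 2.73 and 2.78 at day 2, and 2.69, 5.16 and 3.92 at day 4. The lowest library of day 2 lay above the highest of day 0, and day 2 and day 4 overlapped. The share of all genes whose libraries separate between days in this way was not counted, here or for the genes below. Over the 27 libraries Tek ranged from 4 to 942 fragments.

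Averaged over the 3 genotypes, Tek rose by a log2 fold change of 2.69 (SE 0.324, on the log2(FPKM + 0.1) scale, limma adjusted p = 1.7e-07) from day 0 to day 2 and of 3.61 (SE 0.324, adjusted p = 1.68e-09) from day 0 to day 4. Calls required an adjusted p no larger than 0.05 together with an absolute log2 fold change of 0.58 or more. Over all 14932 genes tested, 42.0% were called from day 0 to day 2 and 45.6% from day 0 to day 4, so that a change over these days was common. The rise of Tek was called in each genotype at both days, where 40.5% (WT), 39.6% (Per1-/-) and 35.5% (Per2-/-) of all genes were called at day 2 and 43.8%, 43% and 40.3% at day 4, with log2 fold changes at day 4 of 3.99 (SE 0.562) in WT, 3.37 in Per1-/- and 3.46 in cells labelled Per2-/-. From day 2 to day 4 the averaged rise was 0.92 (adjusted p = 0.0369), where 9.97% of genes were called, and this call was lost in 10 of the 18 fits that left out 1 library. In bulk RNA a change of this kind cannot be told apart from a change in the number of cells that express the gene.

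**Figure D2:**
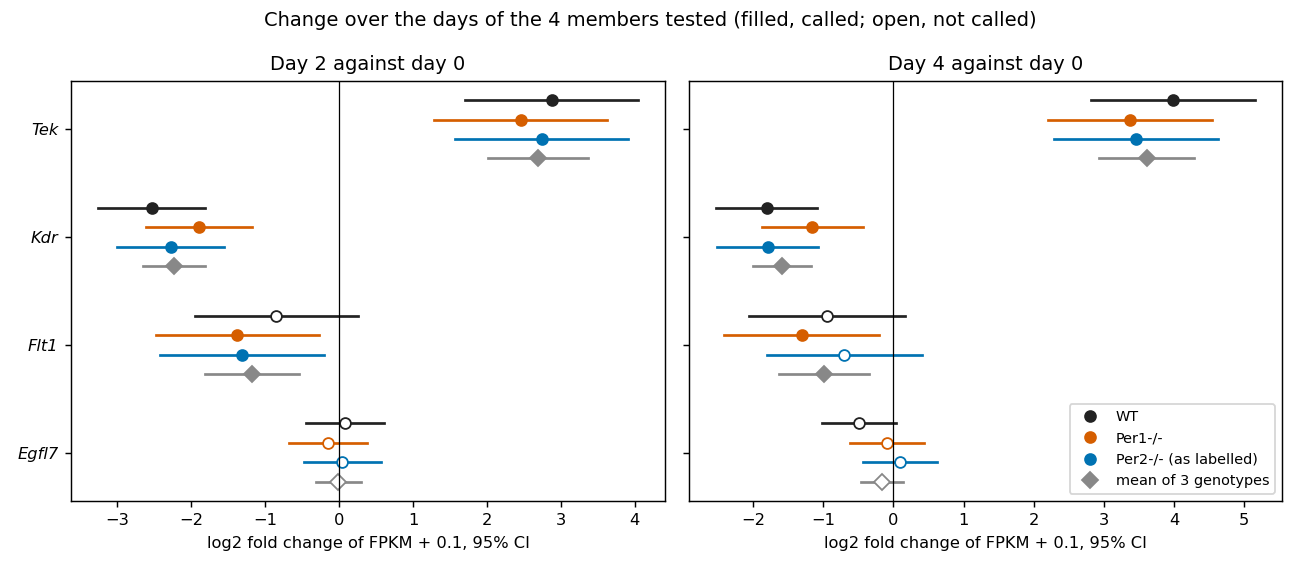
Log2 fold change of FPKM + 0.1 (horizontal axis) with its 95% confidence interval from the limma fit, for the 4 genes that passed the filter, in each genotype and averaged over the 3; filled symbols passed the call. Tek lies to the right of 0 and Kdr to the left in every genotype, Flt1 is called in some genotypes only, and Egfl7 spans 0.

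The VEGF receptor genes moved the other way. Kdr (chromosome 5, 75932827 to 75978458, minus strand) encodes the main signalling receptor for VEGF-A. Kdr was 2.46, 1.90 and 1.78 FPKM in WT cells at day 0, 0.312, 0.295 and 0.205 at day 2, and 0.492, 0.483 and 0.553 at day 4. In Per1-/- cells it was 0.715, 2.38 and 1.82 FPKM at day 0, 0.152, 0.489 and 0.407 at day 2, and 0.608, 0.651 and 0.559 at day 4. In cells labelled Per2-/- it was 2.21, 1.15 and 1.93 FPKM, then 0.296, 0.227 and 0.294, then 0.547, 0.312 and 0.427. All 9 libraries of day 2 and all 9 of day 4 lay below the lowest of day 0. Within each genotype all 3 libraries of day 4 lay above those of day 2. How many of all genes separate in these ways was not counted.

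Averaged over genotypes, Kdr fell by 2.24 on the log2 scale (SE 0.201, limma adjusted p = 1.89e-09) from day 0 to day 2, and by 1.58 (adjusted p = 3.16e-07) from day 0 to day 4. The fall to day 2 was called in each genotype, at -2.53 in WT, -1.89 in Per1-/- and -2.28 in cells labelled Per2-/- (SE 0.347). The fall to day 4 was called in each genotype too, but in Per1-/- cells (log2 fold change -1.15, adjusted p = 0.00659) the call was lost without replicate 2 of day 0, where the value was -0.83. Between day 2 and day 4 Kdr rose by 0.65 (SE 0.201, adjusted p = 0.018), a partial return that was not called with a pseudocount of 1, where it was 0.22, or without Per1-/- replicate 1 of day 2, where it was 0.53.

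Flt1 (chromosome 5, 147561604 to 147726011, minus strand) encodes a VEGF receptor that also exists as a soluble decoy. It was 2.89, 1.76 and 2.33 FPKM in WT cells at day 0, 1.43, 0.998 and 1.28 at day 2, and 0.963, 1.28 and 1.18 at day 4. In Per1-/- cells it was 1.40, 4.61 and 3.16 FPKM at day 0, 0.324, 1.37 and 2.02 at day 2, and 0.385, 1.53 and 1.82 at day 4. In cells labelled Per2-/- it was 1.39, 2.20 and 1.01 FPKM, then 0.591, 0.612 and 0.408, then 0.508, 1.19 and 1.03. The groups of day 0 and day 2 did not overlap in WT cells or in cells labelled Per2-/-, and overlapped in Per1-/- cells.

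Flt1 fell by 1.18 on the log2 scale (SE 0.307, limma adjusted p = 0.00162) from day 0 to day 2 and by 0.98 (SE 0.307, adjusted p = 0.00622) from day 0 to day 4, averaged over genotypes. Within genotypes the fall to day 2 was called in Per1-/- cells (log2 fold change -1.37, adjusted p = 0.0308) and in cells labelled Per2-/- (-1.31, adjusted p = 0.0411), and in WT cells it was -0.85 (adjusted p = 0.175). These calls rested on single libraries. In Per1-/- cells the call was lost without replicate 2 or 3 of day 0 or replicate 1 of day 2, with log2 fold changes of -1.01, -1.28 and -0.69. The fall to day 4 in Per1-/- cells (-1.31, adjusted p = 0.0378) was lost without replicate 2 or 3 of day 0 or replicate 1 of day 4, at -0.94, -1.21 and -0.68. The calls in Per1-/- cells were also lost at both days after rescaling to a common sum (-1.01 and -1.05), with all genes above 0 fitted, with only the 2 groups fitted and without the libraries labelled Per2-/-. In cells labelled Per2-/- the call at day 2 was lost after rescaling (-1.02), with all genes fitted, with a pseudocount of 1 and with voom weights (limma adjusted p = 0.0809), and also in 5 of the 6 fits that left out 1 of its libraries, where the values ran from -1.56 to -1.03 over the 6 fits. In WT cells all 3 libraries of day 2 and of day 4 lay below those of day 0, and the fall was called at both days with a replicate block (limma adjusted p = 0.0142 and 0.00706) or with only the 2 groups fitted (limma adjusted p = 0.0159 and 0.00829). The differences between genotypes in these changes were tested as interactions and none passed.

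The sequences before the start sites of Tek, Kdr and Flt1 are given because these 3 genes were called over the days in the main test, in opposite directions. Each is the 250 bases upstream of the RefSeq start on GRCm38.p6, read in the direction of transcription, at chr4:94739039-94739288 (plus strand) for Tek, chr5:75978456-75978705 (minus strand) for Kdr and chr5:147726012-147726261 (minus strand) for Flt1. Capitals mark matches, on either strand, to GGAAGT or CAGGAA, 2 forms of the site of ETS factors that can overlap each other in CAGGAAGT.
Tek: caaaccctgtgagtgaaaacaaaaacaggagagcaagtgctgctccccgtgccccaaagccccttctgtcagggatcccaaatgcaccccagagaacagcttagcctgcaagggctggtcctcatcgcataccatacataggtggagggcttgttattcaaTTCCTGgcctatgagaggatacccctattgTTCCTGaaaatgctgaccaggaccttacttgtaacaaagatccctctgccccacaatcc
Kdr: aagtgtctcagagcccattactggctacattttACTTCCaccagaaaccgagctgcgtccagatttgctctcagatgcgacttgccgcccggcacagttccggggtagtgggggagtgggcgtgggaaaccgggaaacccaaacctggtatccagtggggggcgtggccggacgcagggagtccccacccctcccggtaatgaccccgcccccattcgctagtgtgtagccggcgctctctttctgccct
Flt1: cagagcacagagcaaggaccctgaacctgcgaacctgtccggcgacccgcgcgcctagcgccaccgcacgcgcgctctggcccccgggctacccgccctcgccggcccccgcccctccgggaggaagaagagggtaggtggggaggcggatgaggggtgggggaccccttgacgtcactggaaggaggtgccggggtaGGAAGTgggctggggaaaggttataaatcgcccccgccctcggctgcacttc
The Tek window held 2 matches to CAGGAA, at 89 and 59 bases before the start, which 25.7% of the 32851 promoter windows in the RefSeq table also hold at least in a single copy. Kdr and Flt1 each held a match to GGAAGT, at 217 and 52 bases before the start, as 19.7% of windows do. The Emcn window also held CAGGAA in 2 places, and the Tie1 window held both ETS forms. For Egfl7, the windows beginning at 26580833 and 26583615 on chromosome 2 held both forms, and that at 26586386 held none. The Cldn5 window held none. The matches did not separate the gene that rose from those that fell, were not called or were at 0. Windows of 7 of the 10 genes were in the table, and those of Pecam1, Cdh5 and Esam were not analysed here.

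Egfl7 (chromosome 2, 26580014 to 26593120, plus strand) did not pass the test in any direction. It ranged from 0.682 to 1.21 FPKM at day 0, from 0.645 to 1.26 at day 2 and from 0.523 to 1.36 at day 4, and the 3 days overlapped throughout. Its averaged log2 fold change was -0.01 from day 0 to day 2 (95% confidence interval -0.31 to 0.30, limma adjusted p = 0.959) and -0.16 from day 0 to day 4 (interval -0.46 to 0.14, adjusted p = 0.322). The gene overlaps Agpat2 on the opposite strand, a gene of lipid synthesis with a mean of 9.79 FPKM, and the libraries did not keep strand, so fragments of the shared stretch cannot be assigned to either. Mir126a and Mir126b, within Egfl7, had 0 fragments in this poly-A RNA.

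Among the genes of cell contacts and the cell surface, Esam and Emcn were lower after day 0 although both lay under the level for the main test. Esam (chromosome 9, 37528078 to 37538319), an adhesion molecule of endothelial tight junctions and platelets, was 0.715, 0.607 and 0.296 FPKM in WT cells at day 0, 0.0539, 0.121 and 0.197 at day 2, and 0.0187, 0.0627 and 0.0777 at day 4. Over the 3 genotypes it had between 16 and 45 fragments per library at day 0 and between 1 and 11 afterwards. Emcn (chromosome 3, 137341067 to 137432185) was 0.457, 0.107 and 0.203 FPKM in WT cells at day 0, 0.0856, 0.0535 and 0.0190 at day 2, and 0.0297, 0.00831 and 0.0247 at day 4. It fell from 12 to 47 fragments per library at day 0 to between 1 and 12 at day 2 and between 0 and 4 at day 4. For both genes every library of days 2 and 4 lay below every library of day 0, in each genotype, a separation not counted over all genes.

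When all 36800 genes with any fragment were fitted, Esam fell by 1.75 (SE 0.197, limma adjusted p = 1.65e-07) and Emcn by 1.19 (SE 0.191, adjusted p = 2.04e-05) on the log2 scale from day 0 to day 2, averaged over genotypes, where 9.72% of genes were called lower. From day 0 to day 4 they fell by 1.80 (adjusted p = 9.63e-08) and 1.53 (adjusted p = 6.01e-07), where 10.2% of genes were called lower. A pseudocount of 0.1 is large for these levels. With fragments weighted by voom over 23006 genes (mean of 1 fragment or more), a fit added after the values were seen, the falls to day 4 were 2.70 for Esam (SE 0.317, adjusted p = 6.73e-08) and 3.61 for Emcn (SE 0.476, adjusted p = 4.32e-07), where 17% of genes were called lower.

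Cdh5 (chromosome 8, 104101625 to 104144511) differed widely between replicates in WT cells and in cells labelled Per2-/-. It was 0.238, 0.0920 and 0.463 FPKM in WT cells at day 0, 0.312, 0.427 and 0.171 at day 2, and 0.318, 0.481 and 0.647 at day 4. In cells labelled Per2-/- it was 0.149, 0.240 and 0.180 FPKM at day 0, 0.0120, 0.842 and 0.231 at day 2, and 0.192, 1.11 and 0.313 at day 4. Replicate 2 of the cells labelled Per2-/- held 69 and 98 fragments at days 2 and 4, the most of any library on each day, whereas replicate 1 held 1 and 18. In Per1-/- cells it was 0.307, 0.587 and 0.290 FPKM at day 0, 0.418, 0.306 and 0.179 at day 2, and 0.671, 0.729 and 0.533 at day 4, so that all 3 libraries of day 4 lay above those of day 2, at 2.14 times their mean. That rise did not pass the test in the fit of all genes (log2 fold change 0.93, limma adjusted p = 0.533), and 2.44% of the genes in the main test were called between these days in Per1-/- cells. Cdh5 was not called over days: in the fit of all genes the averaged log2 fold change from day 0 to day 4 was 0.76 (SE 0.345, limma adjusted p = 0.0859), and with voom weights 0.98 (SE 0.441, adjusted p = 0.0553).

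Pecam1 (chromosome 11, 106654217 to 106750628) ranged from 0.0233 to 0.156 FPKM at day 0, from 0.0246 to 0.116 at day 2 and from 0.00859 to 0.0987 at day 4. Its highest value, 15 fragments, was in Per1-/- replicate 2 of day 0, which also held 4 fragments of Tie1, 2 of Cldn5 and the highest Flt1 and Cdh5 of day 0. Per2-/- replicate 3 of day 4 held the most Tie1 and the joint most Cldn5, at 6 and 3 fragments. Pecam1, Tie1 (chromosome 4, 118471191 to 118490061) and Cldn5 (chromosome 16, 18776847 to 18778262) were not called in the fit of all genes, with averaged log2 fold changes from day 0 to day 4 of -0.23 (limma adjusted p = 0.206), -0.04 (adjusted p = 0.75) and 0.22 (adjusted p = 0.35).

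No member was called between genotypes. The 9 comparisons between genotypes on the same day gave 36 log2 fold changes for the 4 genes tested, from -1.07 for Flt1 to 0.97 for Tek, with a lowest limma adjusted p of 0.642. None of the 36 reached an unadjusted p below 0.05, and none was called under any alternative. Against WT, the share of all genes called was 0.0134%, 0.0067% and 0.0268% in Per1-/- cells and 0.0067%, 0.0268% and 0.0067% in cells labelled Per2-/- at days 0, 2 and 4, and between Per1-/- and Per2-/- cells it was 0.0201%, 0.0737% and 0.556%. The 4 tests of whether a change over days differed from that in WT cells gave 16 values between -0.62 and 0.65, none with an unadjusted p below 0.05 (lowest 0.12) and none called under any alternative, and 0% of all genes were called in these tests. With 3 libraries per group the intervals were wide, as for Tek in Per1-/- against WT cells at day 4, where the log2 fold change was 0.35 (95% confidence interval -0.82 to 1.52).

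Replicate 1 of Per1-/- cells lay at the edge of the range for several members. It had the highest Tek of the 9 libraries on each day, at 1.40, 8.06 and 9.72 FPKM, and the lowest Flt1 at days 2 and 4, at 0.324 and 0.385 FPKM. It also had the lowest Kdr at days 0 and 2 and the lowest Emcn at days 2 and 4. The rise of Tek in Per1-/- cells from day 0 to day 2 was between 1.83 and 3.09 over the 6 fits that left out 1 of its libraries, and it was called in all 6.

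Tek and Kdr varied inversely among the libraries of day 0, but not among those of day 4. At day 0 the library with the most Tek had the least Kdr, and the WT library with the least Tek, at 0.0446 FPKM, had the most Kdr, at 2.46 FPKM. After the group means were taken out, the correlation of their log2 values over the 27 libraries was -0.85, and -0.72 over the 24 libraries without Per1-/- replicate 1. Within days it was -0.88 at day 0, -0.67 at day 2 and 0.19 at day 4, over 9 libraries each. At day 2 Per1-/- replicate 1 had both the most Tek, at 8.06 FPKM, and the least Kdr, at 0.152 FPKM. The correlations within days were not computed without that replicate. Both levels of a library share its depth and composition, and the correlations are descriptions. On the same scale the correlation of Tek with the summed level of 8 cell cycle genes was -0.68, and that of Kdr was 0.75. This list is 1 of 16 whose sums were correlated with each member, and the others are not given here. Nor are its values without Per1-/- replicate 1, and a link to cell division was not tested.

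**Figure D3:**
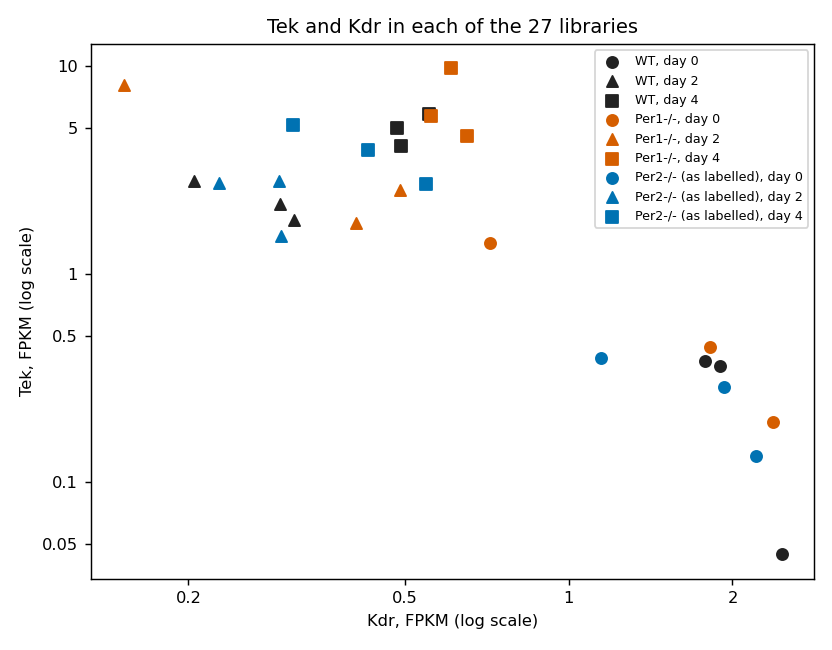
Tek against Kdr in FPKM, both on log scales, for the 27 libraries; colours give the genotype and symbols the day. The 9 libraries of day 0 run from high Kdr with low Tek to lower Kdr with higher Tek, and Per1-/- replicate 1 lies at the upper edge on each day.

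The ligand genes of these receptors were all expressed. All 8 VEGF and angiopoietin ligand genes passed the filter, and from day 0 to day 4 2 were called higher, 5 lower and 1 was not called, against 24.4% of all tested genes called higher and 21.2% lower. Angpt1, the activating ligand of the Tek receptor, rose from a median of 1.21 FPKM at day 0 to 6.62 at day 4 (log2 fold change 2.05, SE 0.24, limma adjusted p = 9.4e-08). Vegfd, a ligand of Flt4, rose from 13.4 to 43.1 FPKM (1.56, SE 0.20, adjusted p = 5e-07). Vegfa, the ligand of Kdr and Flt1, fell from 26.1 to 15.8 FPKM (-0.77, adjusted p = 3.9e-06), and Pgf, a ligand of Flt1, from 1.76 to 0.502 FPKM (-1.43, adjusted p = 3.5e-06). Angpt2, which can oppose Angpt1, changed by -0.62 (adjusted p = 0.00043), Vegfb by -0.58 and Angpt4 by -1.18. When FPKM was rescaled to a common sum, the calls of Vegfa, Vegfb and Angpt2 were lost and Vegfc was called higher (0.74), giving 3 higher, 2 lower and 3 not called.

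Flt4 stood out among the related receptors. It encodes the receptor of lymphatic endothelium for VEGF-C and VEGF-D, and fell from 4.01 to 12.2 FPKM at day 0 to between 0.266 and 0.783 at day 2 and between 0.0945 and 0.298 at day 4 (log2 fold change at day 4 -4.72, SE 0.20, limma adjusted p = 1.1e-14). The co-receptor gene Nrp1 fell at day 2 (-0.68, adjusted p = 1e-06) and was not called at day 4, and Nrp2 was not called at either. After rescaling to a common sum the call of Nrp1 at day 2 was lost (-0.30) and Nrp2 was called higher at day 4 (0.62). Of the lymphatic markers, Prox1, a transcription factor also active in neural progenitors, rose from a median of 0.170 to 3.53 FPKM at day 4 (3.82, SE 0.14, adjusted p = 1.7e-15), Pdpn, which fibroblasts also express, fell (-1.10, adjusted p = 2.7e-08), and Lyve1 did not pass the filter.

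At day 4, 24.4% of all tested genes were called higher and 21.2% lower. Of the further endothelial genes tested, 6 were called higher, 3 lower and 1 was not called at day 4. Those called higher were Ramp2 (log2 fold change 3.28), Clec14a, Cd34, Shank3, Cd93 and Calcrl, and those called lower were Ptprb (-3.13), S1pr1 (-1.64) and Eng (-0.60). Ramp2 and Calcrl encode the subunits of the adrenomedullin receptor, and rose from medians of 0.209 to 3.32 FPKM and of 2.03 to 4.55 FPKM. Ptprb encodes the phosphatase that acts on the Tek receptor, and was 0.943 to 2.18 FPKM at day 0 and at most 0.132 FPKM at day 4. The call of Eng was lost after rescaling to a common sum. Among 12 endothelial transcription factors, 7 passed the filter. Lyl1 (2.43), Lmo2 (2.25), Mef2c (1.66) and Hhex (1.19) were called higher at day 4 and Gata2 (-0.65) lower, against the same shares of all tested genes. Erg and Fli1, ETS factors of endothelium, were not called, at -0.49 (SE 0.50) and 0.37 (SE 0.15). After rescaling the call of Gata2 was lost (-0.35) and Fli1 was called higher (0.66). Cd93, Lyl1 and Lmo2 are also expressed by blood cells, and which cells expressed any gene of these lists was not tested.

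Most Notch genes of arterial endothelium rose. Of 8 tested, 7 were called higher and none lower at day 4, where 24.4% of all tested genes were called higher, and 6 and none at day 2, where 22.2% were. Dll4, the Notch ligand of arterial and sprouting endothelium and also of neural progenitors, was at most 0.0603 FPKM at day 0 and between 2.01 and 5.29 FPKM at day 2 (log2 fold change 4.79, SE 0.16, limma adjusted p = 4.8e-16). Jag2, Hey1 and Hey2 changed by 2.96, 2.35 and 2.12 at day 4, and Efnb2 was not called (0.06, SE 0.05). Among the partners of endothelial junctions, the adhesion molecule gene F11r fell at day 4 (-2.61), as did Jup (-0.73) and Ctnnd1 (-0.65), and Jam2 rose (0.99). The calls of Jup and Ctnnd1 were lost after rescaling to a common sum.

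**Figure D4:**
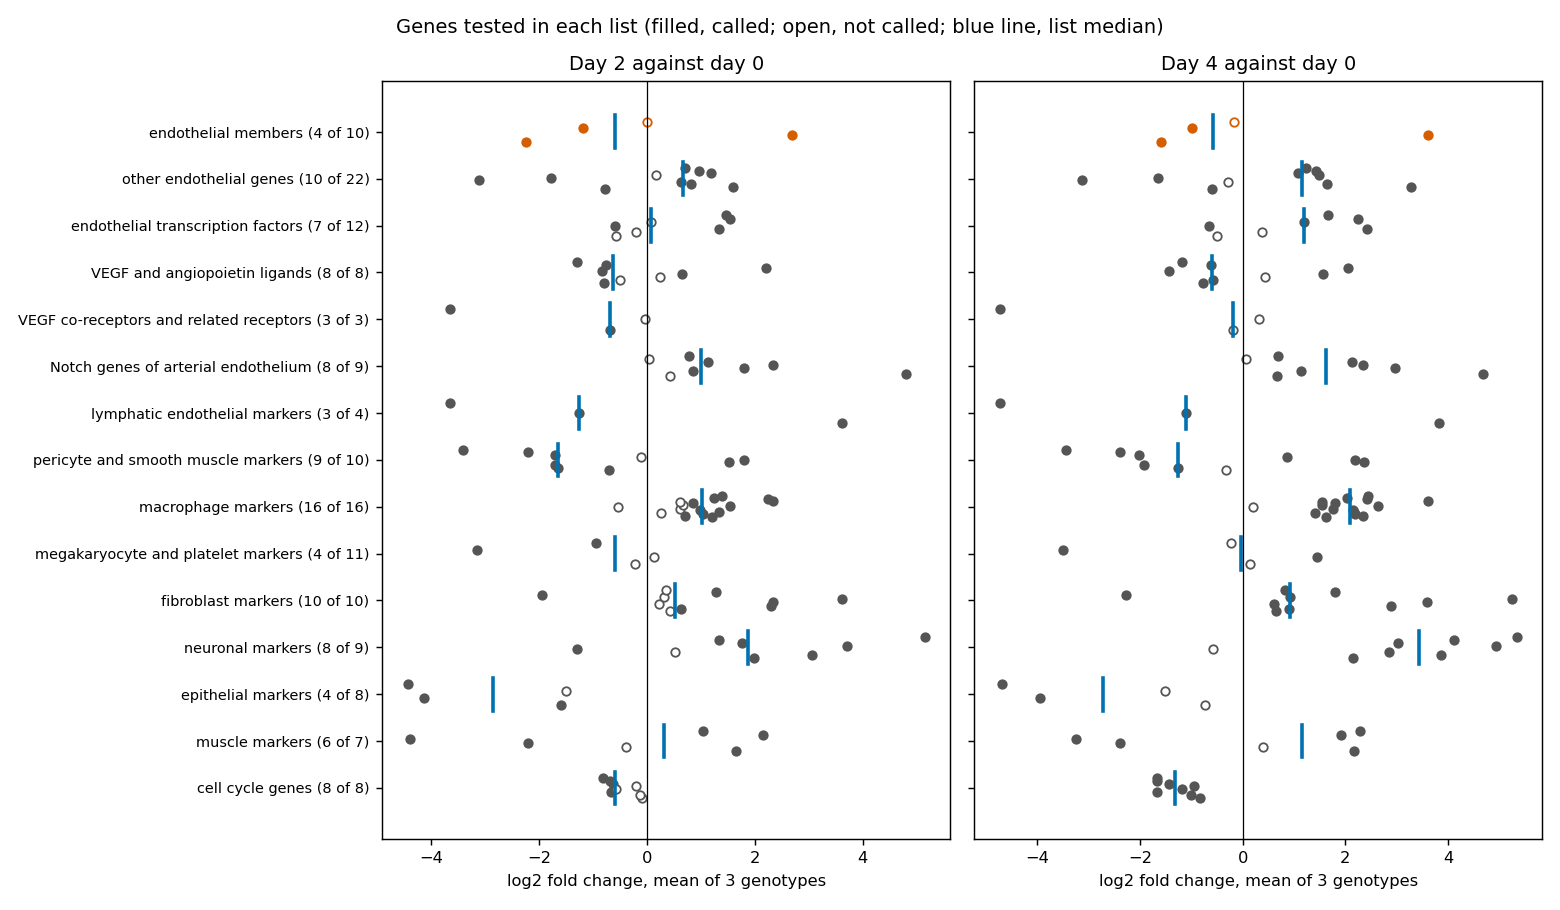
Log2 fold change averaged over the 3 genotypes (horizontal axis) of each tested gene in 15 marker lists (vertical axis, with the number tested of the number listed); filled symbols passed the call and the blue line is the list median. The endothelial genes, in orange, lie on both sides of 0, as do the ligands and the further endothelial genes, whereas most macrophage, fibroblast and neuronal markers lie to the right and the cell cycle genes to the left at day 4.

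Markers of other cell types moved over the same days, and their part in the results above was not tested. For the counts below, 24.4% of all tested genes were called higher at day 4 and 21.2% lower. Of 10 fibroblast markers 9 were called higher and 1 lower at day 4, and their summed level ran from 1777 to 3185 FPKM at day 0 and from 4219 to 5768 FPKM at day 4. All 16 macrophage markers were tested and 15 were called higher at day 4, with sums of 63.3 to 609 FPKM at day 0, 129 to 732 at day 2 and 348 to 1320 at day 4. In Per1-/- cells the macrophage sums were 441 to 732 FPKM at day 2 and 842 to 1320 at day 4. They were 224 to 321 and 481 to 622 in WT cells, and 129 to 221 and 348 to 447 in cells labelled Per2-/-. At day 0 the 3 genotypes overlapped, and the sums were not tested. Of 9 neuronal markers 8 were tested and 7 called higher at day 4, with sums of 27.1 to 49.2 FPKM at day 0 and 105 to 196 at day 4. Of 9 pericyte and smooth muscle markers tested, 3 were called higher and 5 lower, with sums of 128 to 194 FPKM at day 0 and 83.8 to 92.5 at day 4. All 8 cell cycle genes were called lower at day 4 (7 after rescaling, without Mki67), with sums of 114 to 237 FPKM at day 0 and 52.1 to 79.2 at day 4. Epithelial markers had 2 of 4 genes called lower, megakaryocyte and platelet markers 1 higher and 1 lower of 4, and muscle markers 3 higher and 2 lower of 6. The summed level of the 10 endothelial genes overlapped between days, at 5.15 to 10.004 FPKM at day 0, 3.67 to 9.87 at day 2 and 4.82 to 12.3 at day 4.

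The genes whose levels were most like the mean of the 4 tested endothelial genes included genes of ribosomal proteins (Rpl36, Rps29 and Rpl38) and of mitochondrial respiration (Ndufa2 and Cox5b). Over the 27 libraries the highest Pearson correlation with the mean z-score was 0.78 for Rpl36, followed by Gm9115, Rps29, Rpl38, Gm8069, Ndufa2, Sys1, Rbm15, Gm2000 and, at 0.73, Cox5b. That mean combines genes that rose and fell, so genes most like each of them were also taken, a choice made after the values were seen. Abca9 was most like Tek (r = 0.97) and Klf6 most like Kdr (r = 0.97), both pairs sharing the change over days, Ncam1 was most like Flt1 (r = 0.88), and for Egfl7 the highest was 0.62 for Acan.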

How the data were processed

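Poly-A RNA of 27 MEF cultures was sequenced without strand information. Per the labels and the study's methods, the authors aligned reads with HISAT2 2.0.5 to GRCm38, counted fragments with featureCounts 1.5.0-p3 and deposited FPKM per gene and library. The authors tested counts with DESeq2, whose results entered none of the tests run here.

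FPKM is not a count, so tests were run on log2(FPKM + 0.1) with limma 3.58.1 in R 4.3.3 (trend, 9 groups, 18 residual degrees of freedom), over 14932 genes whose mean reached 0.5 FPKM, with Benjamini-Hochberg adjustment over all of them in each comparison. The call took an adjusted p up to 0.05 and an absolute log2 fold change from 0.58 upwards. Whole fragments were recovered from FPKM and gene length, with 100% of values in each library whole within 0.001, giving 15815013 to 24264097 fragments per library and the counts printed with the levels. Confidence intervals are at the 95% level. The fit was also run on simulated fragments with known changes. There a small part of the genes changed, every gene had the same spread and libraries were independent. That run does not vouch for the calls made here.

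Groups came from the labels. All 10 genes, up to 6 genes per other list (the most expressed and those called, largest first) and the 10 genes most correlated with the mean of the tested members were to be named, and further list genes were named after their values were seen, to show what was called or at 0. The members and lists were chosen with earlier results of these data known. Promoter sequences came from RefSeq (GRCm38.p6). Some items of the lists are not reported here. Alternatives changed the pseudocount, the filter, the scaling, the weights, the replicate block and the libraries in the fit. Comparisons with day 0 share its libraries, and whether replicates were separate embryo pools was not given in the sources used here.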

Additional observations from a re-analysis of the deposited data

How the results depend on the processing

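The falls of Kdr and Flt1 and the rise of Tek from day 0 to days 2 and 4, averaged over genotypes, were called under every alternative that tested the gene. The number of members called, 3 in the averaged comparisons of day 2 and day 4 with day 0, was 5 in both with all genes above 0 and with voom weights over genes with a mean of at least 1 fragment, since Esam and Emcn were then tested. Of all genes, 42.0% and 45.6% were called in the main test. The shares were 22.7% and 26.8% with all genes above 0, and 40.1% and 46.2% in that voom fit. The other counts of this paragraph stand without such shares and show only how they depend on the setting. With all genes it was 4 instead of 2 in WT day 2, WT day 4 and Per2-/- day 4 against day 0. With the added voom fit it was 4 in those comparisons and 5 in Per1-/- cells on both days. With a filter at a mean of 1 FPKM, which leaves out Kdr and Egfl7, it was 1 in those WT and Per2-/- comparisons and in day 4 against day 2. The averaged count of day 4 against day 2, 2 in the main test, was 1 with a pseudocount of 1 or 0.01, with all genes and after scaling FPKM to equal sums, and 1 to 2 when 1 library was left out. The count in Per1-/- cells for day 4 against day 0 was 1 when only the 2 groups were fitted and 1 to 3 when 1 library was left out. In WT cells, 1 member in place of 0 was called from day 2 to day 4 when only the 2 groups were fitted.

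Replicates within a genotype share a number across days. Their deviations from the group means correlated between -0.02 and 0.29 for the 27 pairs of equal number, over 0.1 in 14 of them, and a library correlated best with its own number in 48 of 54 combinations, a hint from the data and not from the design. With the number and genotype as a replicate block, 1 member was called from day 2 to day 4 in WT cells in place of 0, and Flt1 was called in WT cells at days 2 and 4, as it was when only the 2 groups were fitted, and in cells labelled Per2-/- at day 4. Within a day no pairing across genotypes followed from the numbers, where 3 of 27 pairs of equal number were over 0.1.

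Rescaling FPKM to a common sum moved the median over all tested genes by 0.37 (log2) from day 0 to day 2 and by 0.29 from day 0 to day 4. The share of called genes that were higher was 52.7% at day 2 and 53.5% at day 4 in the main test and 80.5% and 74.1% after rescaling, and from day 2 to day 4 it went from 65.6% to 55.4%. Under it the value of Egfl7 turned to 0.34 from day 0 to day 2 and to 0.11 from day 0 to day 4, and it ran from -0.0588 to 0.0532 at day 2 when 1 library was left out. It ended the calls of Flt1 within Per1-/- cells and cells labelled Per2-/-. Without the 9 libraries labelled Per2-/-, the Flt1 calls in Per1-/- cells were lost (limma adjusted p = 0.0524 and 0.0617), and no count moved by over 1.5 times.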
